A study of Homo sapiens with 59 samples.

Results

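Neural stem cells that had spent 54 h in CHIR99021 were compared with neural stem cells that had spent 30 h in it, which sets one whole day of added exposure against a matched daily hour. The comparison uses the 3 libraries of 54 h and the 3 libraries of 30 h, labelled A1, A2 and B1 at each time, out of 59 RNA-seq libraries at 20 exposure times from 2 to 72 h. All were made by differentiating 1 human embryonic stem cell line, WA09, also called H9, without genetic change. The growth factor FGF8b (200 ng/mL) came first in both groups, followed by CHIR99021, an inhibitor of the kinase GSK3 that switches on canonical WNT signalling, and by 4 days of retinoic acid, after which the cells were lysed, so that 30 h and 54 h name the length of the middle step only. The 54 h cells were also 1 day longer in culture, and exposure and age of the culture cannot be told apart here. Cells that never saw CHIR99021 were not analysed here, and a single line was used. The labels do not say whether A1, A2 and B1 were separate cultures, so p-values measure the spread between libraries, which may be technical.

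HOX genes are homeobox genes that give cells of the neural tube their position from hindbrain to tail, and within a cluster the low-numbered genes mark the front and the high-numbered genes the back. In the tail bud of the embryo, WNT and FGF signals keep bipotent neuromesodermal progenitors in place and open the HOX clusters from one end to the other. Retinoic acid, made by aldehyde dehydrogenases and removed by CYP26 enzymes, ends that state and turns the cells into neural progenitors.

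The deposited values are in TPM, which scale each library's transcripts to the same total and keep no sequencing depth, so depth is unknown and no detection limit was computed. Differences are of log2(TPM + 1), on which low genes change less than in TPM, and library values are given in the order A1, A2, B1. Between 11683 and 12683 genes reached 1 TPM in each of the 6 libraries, with the lowest number in the A2 library of 30 h, which also correlated least with the others. The label of neural stem cells was set against markers. SOX2 had a mean of 59.5 ± 5.52 TPM at 30 h and 85.6 ± 3.81 TPM at 54 h, PAX6 144 ± 14.0 and 132 ± 1.89 TPM, SOX1 17.1 ± 7.0 and 30.7 ± 2.14 TPM, and the intermediate filament gene NES 381 ± 47.2 and 458 ± 39.7 TPM (SD, n = 3 libraries here and below). The pluripotency gene POU5F1 had 20.6 ± 12.4 TPM at 30 h and 4.87 ± 4.98 TPM at 54 h (adjusted p = 0.4). The neural crest gene SOX10, the endoderm gene SOX17, the paraxial mesoderm gene MSGN1 and the tail bud gene T were listed at 0 in all 6 libraries.

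Over the added day 4 of 11 tested HOX genes of paralog groups 5 to 9 rose, HOXB9 by the most, 3 of 12 dorsal neural tube and roof plate genes rose, and a group of genes led by CALB1, CYP1B1, POMC, BHMT and ALDH1A1 fell to a small part of their former level. Of 15305 genes tested, 182 passed the test, or 1.19%, with 74 higher at 54 h (0.484%) and 108 lower (0.706%), by limma's moderated test with Benjamini-Hochberg adjustment over all genes at a threshold of 0.05. The difference was 1 or more in size, in log2 units, for 64 of the higher and 82 of the lower genes, and 2 or more for 35 and 37. The median difference of all genes tested was 0.02, and the median size of the called differences was 1.64. In bulk RNA, more or fewer cells of a type and more or less RNA in each such cell cannot be told apart. At an unadjusted p under 0.05 there were 692 higher and 649 lower genes. The 3 libraries of 54 h all lay on one side of the 3 of 30 h in 177 of the 182 called genes and in 2828, or 18.5%, of all genes tested (10.2% with the 54 h libraries higher and 8.3% with them lower).

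**Figure D1:**
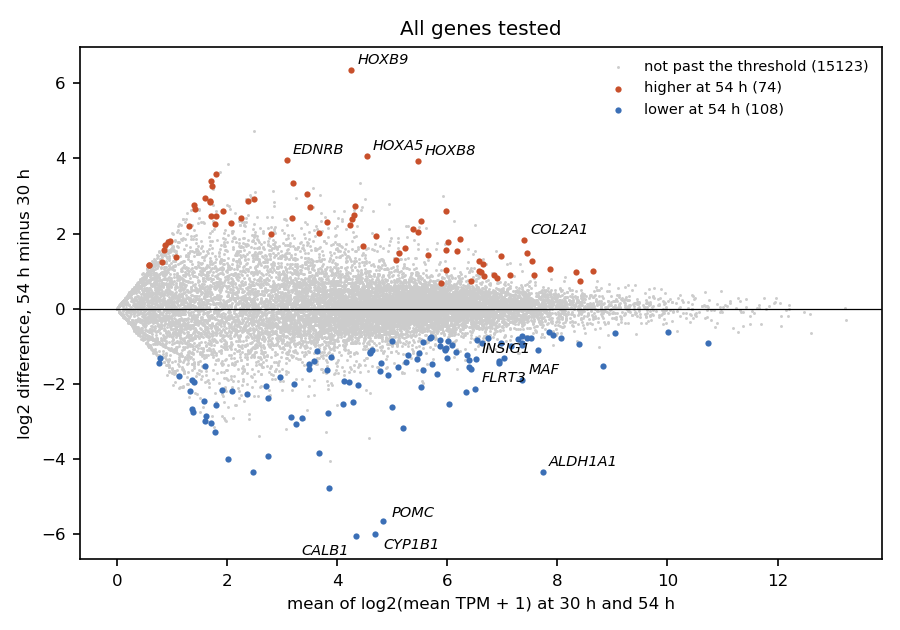
The log2 difference of 54 h minus 30 h (vertical axis) against the mean level of each gene (horizontal axis, the mean of the log2(mean TPM + 1) of both times), 1 point a gene, for the 15305 genes tested. The 74 called higher genes are red and the 108 called lower genes blue, and HOXB9 at 6.34 and CALB1 at −6.04 lie farthest from 0 among the called genes.

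The number of calls moved with the libraries that set the spread. It was 467, with 207 higher and 260 lower, without the 3 libraries of other times that had under 10000 genes at 1 TPM (4 h B1, 42 h B1 and 72 h A2), and 97, with 59 higher and 38 lower, when only the 6 libraries of 30 h and 54 h were fitted. Without 1 library it was 95 (30 h A2), 92 (54 h A1), 111 (54 h A2), 118 (54 h B1), 146 (30 h B1) or 154 (30 h A1). In the fit of the 6 libraries alone, calls that held included those of HOXB9, HOXB8, EDNRB, DUSP6, CPE, COL2A1, LAMB1, CALB1, CYP1B1, ALDH1A1 and OPN5. The calls of SCUBE2, HAPLN1, CHL1, HOXB7, F10, HKDC1, PTPRZ1, FZD7, COLEC12, CSN3, ZNF222 and CCDC140 also held in this fit. Those of HOXA5, NEUROG2, PAX7, CDX2, POMC, BHMT, SFRP4, FZD5, RARB, INSIG1, IDI1, DDIT4, LAMB2, SLIT1, ROBO2, IL24, TM4SF4, CHODL, BHLHA15 and UGCG did not (adjusted p = 0.051 to 0.28), nor did those of LMX1A, OLIG3, DBX1, ROR2, LFNG, MYC, CCND1, MITF, P4HA1, COL12A1, COL4A1, EFNA5, PGM5, ELOVL7, C1orf228 and NKX1-2 (0.054 to 0.21). A pseudocount of 0.1 TPM in place of 1 ended the calls of HOXA5, HOXB7, PAX7, OLIG3, LMX1A, DBX1, SCUBE2, FZD5, FZD7, SFRP4, ROR2, MYC, CHL1, CCDC140, TM4SF4, PGM5, C1orf228 and EFNA5 (adjusted p = 0.052 to 0.25). Among the genes named below, WNT1, RELN, WNT2B, FGFR1, NPPA, HOXC5, SQLE and KLF6 were not called and passed without those 3 libraries of other times, with adjusted p between 0.0023 and 0.042. Of the 182 calls, 66 held in all 6 of these fits, 27 higher and 39 lower, and 23 held in none.

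HOX genes of paralog groups 5 to 9, which belong to the neck and trunk, held the largest rise of all called genes. HOXB9 was at 3.27, 0.71 and 0 TPM at 30 h and 149.98, 155 and 163 TPM at 54 h. HOXB8 was at 13.1, 11.6 and 6.97 TPM at 30 h and 159, 193 and 160.3 TPM at 54 h. Every 54 h library stood far above every 30 h library for both genes (HOXB9 log2 difference 6.34, SE 0.431, adjusted p = 2.2e-14, and HOXB8 3.93, SE 0.368, adjusted p = 2.2e-10). HOXA5 was at 5.36, 0 and 12.6 TPM at 30 h and 97.7, 47.2 and 83.5 TPM at 54 h (log2 difference 4.06, SE 0.804, adjusted p = 0.0022). Its groups did not overlap, though the 30 h libraries were scattered, and without 30 h A2 the call was lost (adjusted p = 0.094). HOXB7 was at 0.66, 0 and 0 TPM at 30 h and 7.93, 7.35 and 7.10 TPM at 54 h (log2 difference 2.84, adjusted p = 0.04), and it did not pass when any 1 of the 6 libraries was left out (adjusted p = 0.057 to 0.18).

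The deposited values hold 15 genes of groups 5 to 9, of which 11 were tested, and these 4 passed, all higher, with a median of 1.03 over the 11 against 0.02 over all genes. The summed level of the 15 ran from 105 to 148 TPM at 30 h and from 502 to 526 TPM at 54 h. HOXB6 had 13.8 ± 5.60 and 27.8 ± 2.90 TPM (adjusted p = 0.85), HOXB5 94.1 ± 20.5 and 67.7 ± 13.1 TPM (adjusted p = 1), and HOXC5 was listed at 0 in the 30 h libraries and had 2.43, 1.70 and 2.62 TPM at 54 h (adjusted p = 0.21). HOXA6 was above 0 in 54 h A1 alone, at 6.21 TPM. The 4 genes below the filter, HOXA9, HOXC8, HOXC9 and HOXD9, and all 12 genes of groups 10 to 13 were listed at 0 in all 6 libraries.

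Groups 1 to 4 are the hindbrain and upper neck genes. Of the 12 tested, 1 passed, and the median was 0.11. HOXB1, at 46.8, 57.3 and 106 TPM against 187, 179 and 218 TPM, had no overlap between times and did not pass (adjusted p = 0.54). On the other side lay HOXB4, at 155, 175 and 128 TPM against 75.6, 60.7 and 86.9 TPM (log2 difference −1.03, adjusted p = 0.32), and HOXD4, at 195, 201 and 190 TPM against 154, 172 and 146 TPM (adjusted p = 0.95). The sum of the 12 ran from 865 to 968 TPM at 30 h and from 937 to 1027 TPM at 54 h. The HOX cofactors, which help HOX proteins bind DNA, gave 0 calls among 9 genes by limma (1 at an unadjusted p under 0.05, median 0.13), with MEIS2 at 324 ± 29.8 and 293 ± 26.8 TPM.

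Caudal and tail bud genes are the regulators of the posterior growth zone. CDX2, a caudal homeobox gene that acts on the HOX clusters, was at 0.37, 0 and 0 TPM at 30 h and 1.67, 5.78 and 6.14 TPM at 54 h (log2 difference 2.19, SE 0.454, adjusted p = 0.0037, or 0.052 without 54 h B1). NKX1-2, a homeobox gene of the pre-neural tail region, was listed at 0 in all 3 libraries of 30 h and was at 6.99, 1.90 and 9.43 TPM at 54 h (adjusted p = 0.045). It passed only in the fit without 54 h A2 among the 6 that left out a library (adjusted p = 0.11 to 0.25 in the others). Both rose, from very low levels, the other 9 of the 11 tested did not pass, and the median was 0.20. LIN28A, an RNA-binding protein of early progenitors, was among the highest of them, at 885 ± 92.3 and 964 ± 20.3 TPM (adjusted p = 0.98), with LIN28B at 214 ± 18.9 and 169.8 ± 19.6 TPM (adjusted p = 0.65).

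**Figure D2:**
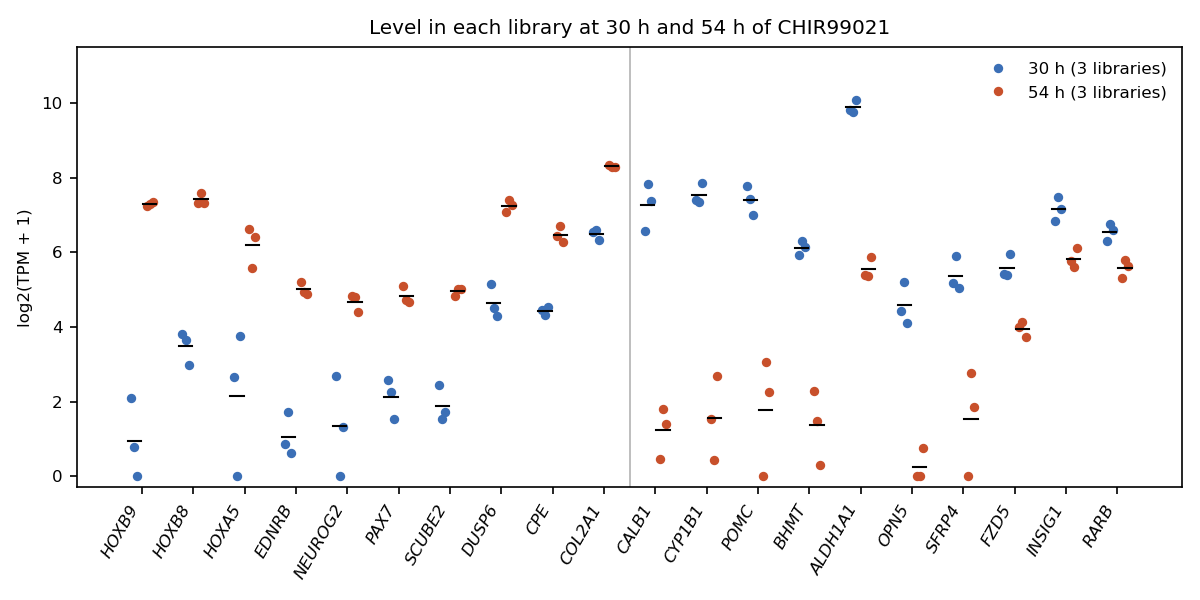
Level of 10 genes that were higher and 10 that were lower at 54 h, as log2(TPM + 1) in each library (points, blue for 30 h and red for 54 h, 3 libraries each, bars at the mean). The points of the 2 times are apart for all 20 genes, and the libraries of a time are most scattered where the level is near 0, as for HOXA5 and NEUROG2 at 30 h and POMC and SFRP4 at 54 h.

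Along the other axis of the neural tube, genes of the dorsal side and the roof plate had the highest median of the lists with tested members, 1.29 over 12 genes. PAX7, a paired-box gene of dorsal progenitors, was at 4.94, 3.76 and 1.89 TPM at 30 h and 32.9, 25.6 and 24.5 TPM at 54 h (log2 difference 2.71, SE 0.553, adjusted p = 0.003). OLIG3, a basic helix-loop-helix gene of dorsal progenitors, was at 7.25, 5.22 and 6.83 TPM and 24.1, 64.8 and 68.8 TPM (log2 difference 2.72, adjusted p = 0.026). LMX1A, a roof plate determinant, was at 1.05, 0 and 2.39 TPM and 12.5, 12.1 and 16.3 TPM (log2 difference 2.93, adjusted p = 0.046). These 3 genes rose with no overlap of the libraries, and the other 9 did not pass. Of the 12, 10 were above 0 and 2 below, with the lowest difference at −2.02. All 54 h libraries were higher in 6 and lower in 1, against 10.2% and 8.3% of all genes. At limma's unadjusted p under 0.05, 5 were higher and 1 was lower. The call of PAX7 held whichever library was left out, but not with the 6 libraries alone (adjusted p = 0.068) or a pseudocount of 0.1 TPM (0.16). That of OLIG3 held only without 54 h A1 (adjusted p = 0.06 to 0.15 in the other 5 fits), and that of LMX1A only without 30 h B1 (adjusted p = 0.11 to 0.33 in the others). WNT1, the roof plate ligand, was at 32.1, 12.6 and 24.2 TPM against 101, 86.1 and 108 TPM, apart but short of the threshold (adjusted p = 0.22, or 0.0092 without the 3 libraries of other times named above), and PAX3, already high, was at 264 ± 41.5 and 296 ± 18.5 TPM (adjusted p = 0.96).

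Of 11 ventral genes 8, among them SHH, OLIG2, NKX2-2 and NKX6-1, were listed at 0 in all 6 libraries, and the other 3 were tested. The sum of the list, most of it DBX2, ran from 58.9 to 72.9 TPM at 30 h and from 23.9 to 38.8 TPM at 54 h. DBX1, which marks progenitors near the middle of the tube, was at 1.74, 0 and 0 TPM at 30 h and 3.84, 8.89 and 11.8 TPM at 54 h (log2 difference 2.60, adjusted p = 0.023). Its partner DBX2 was at 57.1, 58.9 and 71.0 TPM against 20.1, 27.2 and 26.9 TPM (adjusted p = 0.57). DBX1 thus rose while DBX2 had lower values and did not pass, and the DBX1 call was lost without 30 h A2, 30 h B1, 54 h A2 or 54 h B1 (adjusted p = 0.11 to 0.16).

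The summed level of neural progenitor genes ran from 2902 to 3182 TPM at 30 h and from 3187 to 3317 TPM at 54 h, so that every 54 h library was above every 30 h one. Of the 20 tested, 10 had all 54 h libraries higher and 3 had all lower, against 10.2% and 8.3% of all genes. PTPRZ1, a receptor phosphatase of radial progenitors, was at 71.5, 56.2 and 68.5 TPM at 30 h and 151, 152 and 146 TPM at 54 h (log2 difference 1.19, SE 0.249, adjusted p = 0.0041). The libraries of a time lay close together and the 2 times far apart, although the threshold was missed without 30 h A2 (adjusted p = 0.055). Of 20 genes tested 2 passed, both higher, and the median was 0.33. CDH2, the neural cadherin and the highest of the list, was at 1574 ± 117 and 1374 ± 72.4 TPM (adjusted p = 0.93).

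Genes of neurons and of the step toward them were counted next. NEUROG2, a proneural gene that starts neuron formation, was at 5.41, 0 and 1.51 TPM at 30 h and 27.4, 26.9 and 20.0 TPM at 54 h, with every 54 h library above every 30 h one (log2 difference 3.34, SE 0.573, adjusted p = 0.00028). It was the only one of 30 neuron genes that passed, and the median of the list was 0.58. TUBB3, the neuronal tubulin, was at 131 ± 32.0 and 121 ± 6.66 TPM (adjusted p = 1), and RELN, which encodes reelin, at 226, 179 and 298 against 92.7, 88.2 and 124 TPM (adjusted p = 0.11). In the Notch pathway, which holds neighbouring cells back from becoming neurons, LFNG, the glycosyltransferase that tunes the receptors, was at 83.4, 69.7 and 53.8 TPM against 129, 149 and 125 TPM (log2 difference 0.97, adjusted p = 0.024). LFNG was the only one of 18 Notch genes that passed, it held in the fit without 30 h A1 alone (adjusted p = 0.055 to 0.17 without each of the others), and the list's median was 0.64. The ligand JAG1 had 158 ± 6.78 and 178 ± 5.84 TPM (adjusted p = 0.92).

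CHIR99021 acts on the WNT pathway, but the cells were lysed after 4 days of retinoic acid, so these levels are those of the later state. Among feedback genes and beta-catenin targets 2 of 15 passed, both higher, with a median of 0.68. MYC was at 21.7, 17.8 and 19.5 TPM at 30 h and 77.2, 47.1 and 48.3 TPM at 54 h (log2 difference 1.47, adjusted p = 0.04). CCND1, cyclin D1, was at 141, 151 and 126 TPM and 246, 241 and 292 TPM (log2 difference 0.89, adjusted p = 0.024). Their libraries did not overlap, yet neither call held when any 1 library was left out (adjusted p = 0.074 to 0.29 for MYC and 0.057 to 0.15 for CCND1). MYC was also the only one of 19 immediate early and MYC network genes that passed (median 0.37). AXIN2, the usual readout of the pathway, was at 57.6, 48.1 and 69.6 TPM against 95.8, 109 and 85.9 TPM (adjusted p = 0.38).

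On the receptor side FZD5 fell and FZD7 rose. FZD5 was at 41.9, 40.8 and 61.4 TPM at 30 h and 14.9, 16.4 and 12.2 TPM at 54 h (log2 difference −1.64, SE 0.306, adjusted p = 0.00089), and its call held whichever library was left out, but not with the 6 libraries alone (adjusted p = 0.066) or a pseudocount of 0.1 TPM (0.15). FZD7 was at 64.3, 73.0 and 91.7 TPM and 212, 191 and 205 TPM (log2 difference 1.41, adjusted p = 0.044), and it did not pass without any 1 library (adjusted p = 0.061 to 0.17). The other 19 of 21 ligands and receptors did not pass (median 0.35), among them WNT2B, at 64.0 ± 23.5 and 155 ± 22.4 TPM (adjusted p = 0.56). ROR2, a receptor for noncanonical WNT ligands, rose from 1.93, 0 and 1.12 TPM to 12.8, 13.2 and 11.6 TPM (log2 difference 2.88, adjusted p = 0.034), and kept its call only without 30 h A1 (adjusted p = 0.072 to 0.25 otherwise). Of 10 secreted antagonists 1 passed (median −0.19). SFRP4, a decoy that binds WNT proteins, fell from 35.3, 58.4 and 32.1 TPM to 0, 5.77 and 2.62 TPM (log2 difference −3.84, SE 0.828, adjusted p = 0.0057), with no call without 30 h A2 or 54 h A1 (adjusted p = 0.059 to 0.14). Its relative SFRP2, the highest of the list, was at 496 ± 145 and 627 ± 16.1 TPM (adjusted p = 0.83).

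For FGF signalling, DUSP6, the phosphatase that ERK activity induces and that switches ERK off, was at 34.5, 21.7 and 18.8 TPM at 30 h and 135, 169.6 and 152 TPM at 54 h (log2 difference 2.60, SE 0.436, adjusted p = 0.00021). All 54 h libraries stood above all 30 h libraries. It was the only one of 16 genes of the list that passed, and the median was 0.65. The receptor FGFR1 was at 213, 203 and 225 TPM against 367, 358 and 355 TPM, apart but not past the threshold (adjusted p = 0.14), and FGFR2 at 186 ± 23.6 and 232 ± 20.3 TPM. In the Hedgehog pathway SCUBE2, a secreted protein that helps release the ligand from cells, was at 4.46, 1.88 and 2.27 TPM and 27.5, 31.1 and 31.7 TPM (log2 difference 3.06, SE 0.632, adjusted p = 0.0034). SCUBE2 was the only one of 14 that passed (median 0.36), while the coreceptors CDON (163 ± 27.3 and 165 ± 5.46 TPM) and GAS1 (77.2 ± 6.25 and 105 ± 14.5 TPM) did not. Among BMP and TGF-beta genes 0 of 19 passed by limma (5 higher and 2 lower at an unadjusted p under 0.05, median 0.50), with the BMP target ID3 at 548 ± 14.8 and 776 ± 71.6 TPM and ID2 at 242 ± 70.1 and 155 ± 31.1 TPM.

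Of the 15 genes with the largest falls, the highest at 30 h was a retinoid gene. ALDH1A1, which oxidizes retinaldehyde to retinoic acid, was at 906, 865 and 1088 TPM at 30 h and 41.2, 40.5 and 57.9 TPM at 54 h. The highest 54 h library was far below the lowest 30 h library (log2 difference −4.34, SE 0.336, adjusted p = 7.3e-13). RARB, a retinoic acid receptor that retinoic acid induces, was at 78.5, 107 and 96.6 TPM and 39.1, 54.8 and 48.7 TPM (log2 difference −0.97, SE 0.202, adjusted p = 0.0038), and missed the threshold without 30 h A2 or 54 h A1 (adjusted p = 0.056 to 0.076). These were the only members called, 1 of 11 genes of synthesis and degradation (median −0.39) and 1 of 10 receptors and binding proteins (median 0.17). CYP26A1, which degrades retinoic acid, was at 516, 476 and 376 TPM against 332, 401 and 306 TPM (adjusted p = 0.45), and the binding protein CRABP2 at 1647 ± 242 and 1724 ± 44.6 TPM (adjusted p = 1). CYP1B1, a cytochrome P450 that oxidizes steroids and retinol, was at 168, 162 and 232 TPM at 30 h and 1.89, 0.35 and 5.46 TPM at 54 h (log2 difference −5.99, SE 0.429, adjusted p = 7.4e-14). No library of one time came near those of the other.

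The region before the start of ALDH1A1 is shown because this gene was the highest at 30 h among those with the largest falls. It is the far part of the 250 bases upstream of the RefSeq start in build GRCh38.p14, chr9:72953064-72953303, minus strand, ending before the annotated first exons, with the CCAAT box in capitals.
ALDH1A1: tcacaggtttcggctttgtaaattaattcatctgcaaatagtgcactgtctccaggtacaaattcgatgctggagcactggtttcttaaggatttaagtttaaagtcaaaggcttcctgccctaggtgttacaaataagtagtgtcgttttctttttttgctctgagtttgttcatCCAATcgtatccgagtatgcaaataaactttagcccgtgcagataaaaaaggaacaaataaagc

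Among genes of peptide hormones and endothelin 2 rose and 1 fell of 17, with a median of 0.00. POMC, the precursor of corticotropin and melanocortins, was at 220.2, 170.4 and 127 TPM at 30 h and 0, 7.34 and 3.75 TPM at 54 h (log2 difference −5.63, SE 0.789, adjusted p = 7.8e-06). EDNRB, the endothelin B receptor, was at 0.82, 2.27 and 0.54 TPM and 35.7, 29.9 and 28.6 TPM (log2 difference 3.95, SE 0.642, adjusted p = 0.00013). CPE, the carboxypeptidase that trims peptide hormones, was at 21.1, 18.9 and 22.3 TPM and 86.1, 103 and 77.1 TPM (log2 difference 2.04, SE 0.306, adjusted p = 3.1e-05). The 3 genes had no overlap between times, and their calls held in all 6 fits that left out a library, though that of POMC did not with the 6 libraries alone (adjusted p = 0.088). The natriuretic peptide gene NPPA, at 11.6, 0 and 0 TPM against 11.7, 15.1 and 26.6 TPM, narrowly missed the threshold (adjusted p = 0.051).

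The other genes with the largest falls had varied roles. CALB1, the calcium buffer calbindin, was at 94.6, 228 and 165 TPM at 30 h and 0.38, 2.5 and 1.66 TPM at 54 h (log2 difference −6.04, SE 0.482, adjusted p = 1.7e-12). BHMT, which remethylates homocysteine with betaine, was at 60.1, 77.8 and 70.0 TPM and 3.91, 1.81 and 0.24 TPM (log2 difference −4.76, SE 0.441, adjusted p = 1.8e-10). For both genes the 30 h libraries were all high and the 54 h libraries all close to 0. BHMT was the only one of 13 methionine and homocysteine genes that passed (median −0.24), beside MAT2A at 712 ± 58.8 and 544 ± 42.0 TPM and AHCY at 280.3 ± 43.5 and 315 ± 22.3 TPM. OPN5, an opsin, was at 20.5, 36.1 and 16.1 TPM and 0, 0 and 0.69 TPM (log2 difference −4.33, adjusted p = 6e-09). F10, coagulation factor X, was at 18.5, 15.01 and 12.1 TPM and was listed at 0 in all 3 libraries of 54 h (adjusted p = 6e-04). The cytokine gene IL24 (−3.93), the transmembrane gene TM4SF4 (−3.16), the lectin gene CHODL (−3.06) and the hexokinase-like gene HKDC1 (−2.98) also fell, with adjusted p between 2.2e-04 and 0.0018. PGM5 (−2.90, adjusted p = 0.016), the fatty acid elongase ELOVL7 and C1orf228 fell too, the last 2 listed at 0 in all 54 h libraries (adjusted p = 0.022 and 0.018). These 3 calls did not hold in most fits that left out a library. PGM5 lost its call without 30 h A1, 30 h A2, 54 h A1 or 54 h B1 (adjusted p = 0.064 to 0.12), and ELOVL7 and C1orf228 without any library but 30 h A1 (adjusted p = 0.062 to 0.27 and 0.062 to 0.16).

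The remaining genes with the largest rises were at or near 0 at 30 h, and some of them took no steady course. BHLHA15, a helix-loop-helix gene of secretory cells, was listed at 0 in all 3 libraries of 30 h and was at 14.2, 11.8 and 3.49 TPM at 54 h (adjusted p = 3.1e-05). Its mean was 0 at every other time from 14 h to 72 h. HAPLN1, which links hyaluronan to proteoglycans, was at 0, 0 and 0.24 TPM and 10.6, 4.81 and 7.30 TPM (log2 difference 2.94, adjusted p = 0.00073), and both calls held in all 6 fits that left out a library. CHL1, a neural adhesion molecule, was at 0, 0 and 0.63 TPM and 7.79, 7.62 and 7.27 TPM (log2 difference 2.86, adjusted p = 0.0059, or 0.051 without 30 h A2). CSN3, ZNF222 and CCDC140 were listed at 0 in all 30 h libraries and were at 12.3, 12.6 and 8.35 TPM, 8.30, 9.54 and 11.0 TPM and 4.62, 4.28 and 9.24 TPM at 54 h (adjusted p = 0.026, 0.031 and 0.025). The 30 h value of ZNF222 was a low point, since its mean was between 2.67 and 13.1 TPM at all other times but 72 h, where it was also 0. None of these 3 passed when any library was left out (adjusted p = 0.057 to 0.11, 0.084 to 0.12 and 0.054 to 0.16).

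Cholesterol synthesis genes are driven by the SREBP transcription factors, which INSIG1 holds back in the endoplasmic reticulum and which also induce INSIG1. INSIG1 was at 114, 177 and 143 TPM at 30 h and 53.5, 47.8 and 68.5 TPM at 54 h (log2 difference −1.34, SE 0.178, adjusted p = 2.9e-06). IDI1, the isomerase that makes the building blocks of sterols interconvertible, was at 194, 269 and 210.5 TPM and 115, 112 and 129 TPM (log2 difference −0.90, adjusted p = 0.03). Both genes fell with no overlap of libraries. Of the 17 list genes 3 fell and 0 rose, and the median of the list was −0.26 against 0.02 over all genes. The INSIG1 call held whichever library was left out, though not with the 6 libraries alone (adjusted p = 0.099), and IDI1 passed only without 30 h A1 (adjusted p = 0.057 to 0.24 in the other 5 fits). HMGCS1 was at 564 ± 55.2 and 477 ± 39.6 TPM (adjusted p = 0.71) and SQLE at 367 ± 16.4 and 266 ± 29.9 TPM (adjusted p = 0.51). Outside the list, and chosen after their values were seen, MVK, mevalonate kinase, was at 20.5, 25.9 and 18.9 TPM and 3.80, 0.43 and 3.21 TPM (log2 difference −2.88, adjusted p = 0.029) and HSD17B7, a sterol reductase, at 53.3, 59.7 and 54.9 TPM and 31.3, 13.8 and 14.8 TPM (adjusted p = 0.047). Both of these calls held only without 54 h A1 (adjusted p = 0.052 to 0.28 and 0.11 to 0.29 in the other fits).

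INSIG1 and IDI1 both fell and are targets of the same factors, whose part in the falls was not tested. The far part of the 250 bases upstream of their RefSeq starts (GRCh38.p14) is printed, each ending before the annotated first exons. They are chr7:155297628-155297767, plus strand, for INSIG1 and chr10:1049180-1049369, minus strand, for IDI1, where capitals mark the motifs below in either orientation.
INSIG1: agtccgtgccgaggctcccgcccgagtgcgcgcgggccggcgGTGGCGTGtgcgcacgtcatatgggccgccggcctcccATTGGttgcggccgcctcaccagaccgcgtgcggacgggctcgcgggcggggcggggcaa
IDI1: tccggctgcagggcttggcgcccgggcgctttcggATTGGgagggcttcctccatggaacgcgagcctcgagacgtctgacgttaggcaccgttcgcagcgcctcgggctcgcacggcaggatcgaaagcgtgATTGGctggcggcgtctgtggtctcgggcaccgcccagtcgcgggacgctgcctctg
The searched patterns were CCAAT, the site of NF-Y, and CACNCCAC, which takes in the core of the sterol regulatory element, on both strands of the full 250 bases. CCAAT was in 32.0% and CACNCCAC in 4.87% of all 35116 promoter regions of that table. Of the 17 list genes 11 had a region there, 10 with CCAAT and 3 with CACNCCAC in at least 1 of their regions. These are counts of genes, some with more than 1 region, while the shares above are of regions. The counts and the shares are thus not like for like, and no share of genes was computed. The printed region of IDI1 has no CACNCCAC, and IDI1 counts among the 3 through another region, starting at 1048837. A further IDI1 region, starting at 1056655, has neither motif. A match of letters describes the window and does not show binding.

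Of 18 amino acid response and endoplasmic reticulum chaperone genes, DDIT4, a stress-induced inhibitor of mTOR complex 1, was the only one that passed (median 0.10). It was at 257, 391 and 219 TPM at 30 h and 134, 92.3 and 183 TPM at 54 h (log2 difference −1.09, SE 0.235, adjusted p = 0.0058), with no call without 30 h A2 or 54 h A2 (adjusted p = 0.15 to 0.16). The chaperones HSP90B1 (972 ± 51.2 and 949 ± 30.1 TPM) and HSPA5 (753 ± 47.5 and 688 ± 21.4 TPM) did not pass.

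Matrix genes moved in both directions. COL2A1, a fibrillar collagen of cartilage and notochord, was at 91.9, 96.0 and 79.1 TPM at 30 h and 324, 311 and 313 TPM at 54 h (log2 difference 1.82, SE 0.277, adjusted p = 3.5e-05). COL12A1 was at 26.8, 38.7 and 38.6 TPM and 4.94, 11.3 and 9.48 TPM (log2 difference −1.94, adjusted p = 0.016), and COL4A1, of the basement membrane, at 261, 167 and 265 TPM and 124, 109.6 and 113 TPM (log2 difference −0.96, adjusted p = 0.022). Thus 1 of 21 collagens rose and 2 fell (median 0.23). COL12A1 was not called without 30 h A2, 30 h B1 or 54 h A1 (adjusted p = 0.071 to 0.18), nor COL4A1 without any library but 30 h A2 (adjusted p = 0.06 to 0.13). The highest collagen, COL18A1, was at 468 ± 17.0 and 453 ± 5.83 TPM (adjusted p = 1). Among 24 integrins and laminins (median −0.12) 2 beta chains passed, in opposite directions. LAMB1 fell from 169.6, 201 and 215 TPM to 70.3, 65.1 and 89.3 TPM (log2 difference −1.38, SE 0.23, adjusted p = 0.00021), and LAMB2 rose from 25.9, 16.7 and 18.9 TPM to 40.3, 62.0 and 53.2 TPM (log2 difference 1.30, SE 0.219, adjusted p = 0.00022). ITGB1, the common integrin beta chain, was at 461 ± 22.8 and 391 ± 14.8 TPM (adjusted p = 0.83).

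In axon guidance a ligand rose while a receptor for such ligands fell. SLIT1, a repellent, was at 13.6, 8.13 and 16.0 TPM at 30 h and 43.3, 55.5 and 48.1 TPM at 54 h (log2 difference 1.92, SE 0.332, adjusted p = 0.00031). ROBO2, a SLIT receptor, was at 63.1, 47.7 and 66.2 TPM and 21.8, 23.6 and 28.1 TPM (log2 difference −1.23, SE 0.209, adjusted p = 0.00025). The ephrin gene EFNA5 was at 37.9, 29.9 and 36.3 TPM and 16.6, 10.6 and 18.5 TPM (log2 difference −1.16, adjusted p = 0.046), but passed in none of the fits that left out a library (adjusted p = 0.055 to 0.34). These were the 3 of 35 that passed, and the list's median was 0.06. NRP2, the highest of the list, was at 208 ± 10.4 and 242 ± 8.20 TPM (adjusted p = 0.98).

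Some called genes outside the lists are given because they were abundant and held in all 6 fits that left out a library, a choice made after their values were seen. MAF, a leucine zipper transcription factor, was at 284, 286 and 376 TPM at 30 h and 85.1, 81.0 and 85.1 TPM at 54 h (log2 difference −1.89, SE 0.204, adjusted p = 1.1e-08). FLRT3, an adhesion molecule that also binds FGF receptors, was at 155, 224 and 192 TPM and 46.0, 37.0 and 44.8 TPM (log2 difference −2.12, SE 0.207, adjusted p = 7.4e-10). In both genes all 54 h libraries were far below all 30 h ones. The heat shock factor binding protein gene HSBP1 (772 ± 117 to 268 ± 21.8 TPM, adjusted p = 2.9e-05), the complement gene CFI (177 ± 63.6 to 36.1 ± 0.943 TPM, adjusted p = 7.6e-05) and the unconventional cyclin gene CCNG2 (99.8 ± 3.68 to 39.3 ± 1.63 TPM, adjusted p = 2.9e-06) fell as well. WLS, the carrier that WNT proteins need for secretion, rose from 132, 73.5 and 109 TPM to 294, 279 and 293 TPM (log2 difference 1.49, SE 0.259, adjusted p = 0.00034). The glypican gene GPC4 (41.9 ± 9.04 to 122 ± 7.81 TPM, adjusted p = 0.00044) and SPON1, which encodes the floor plate protein F-spondin (19.1 ± 4.01 to 84.4 ± 3.05 TPM, adjusted p = 0.00022), rose too.

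**Figure D3:**
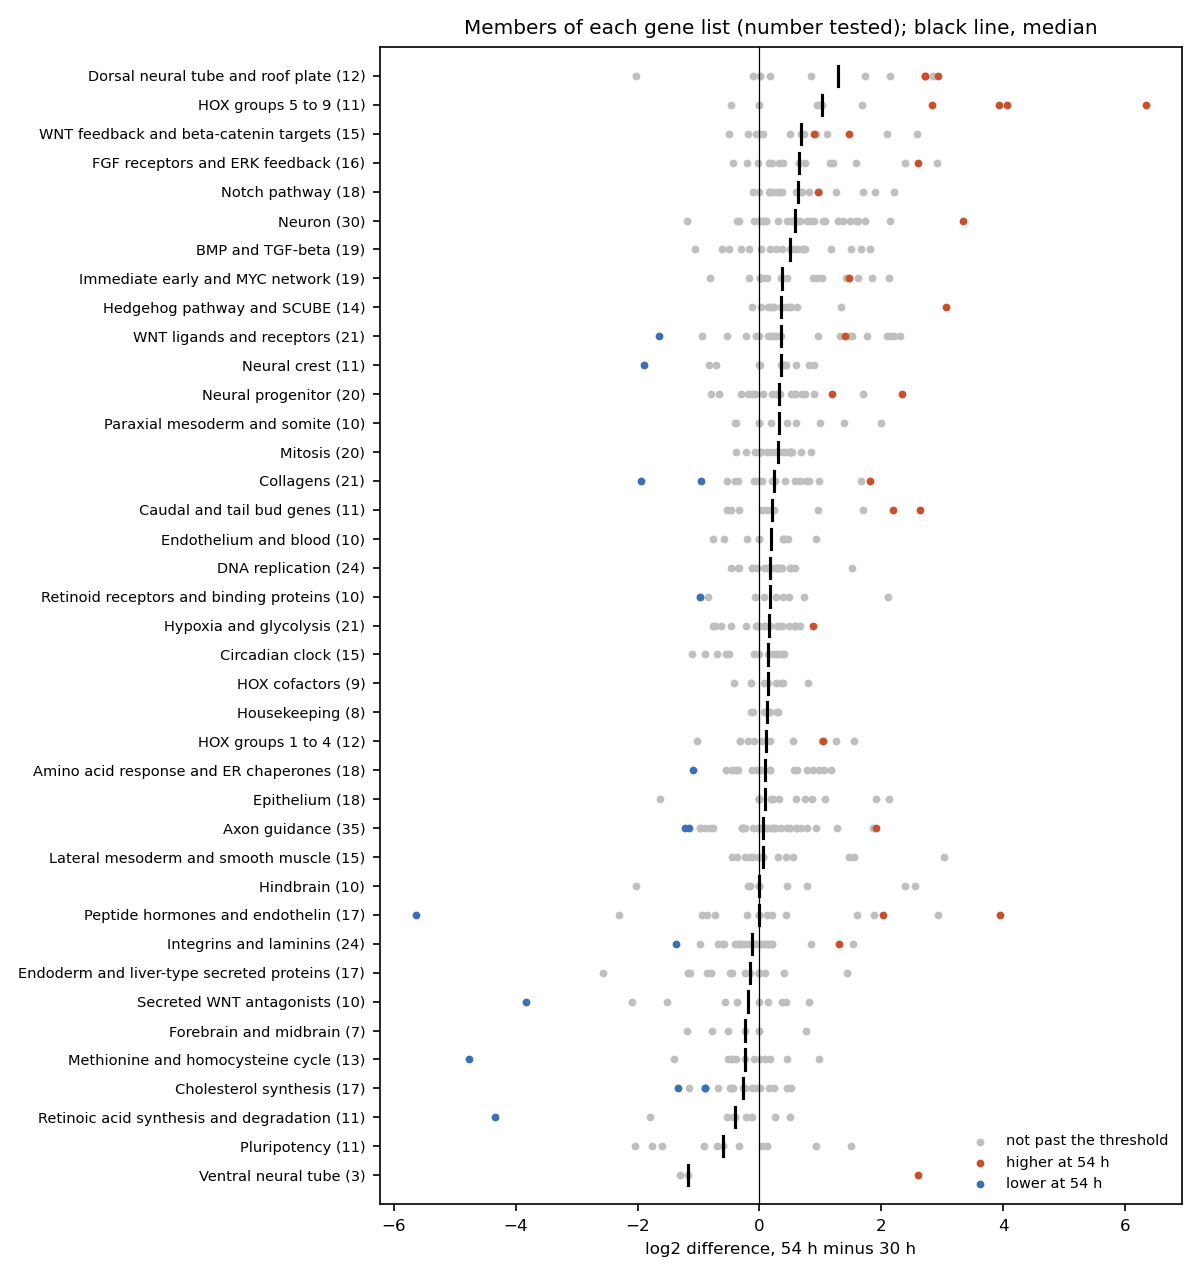
The log2 difference of 54 h minus 30 h for every tested member of the 39 lists that had one, 1 point a gene, with the list's median as a black line and the number tested in brackets. Called members are red (higher) or blue (lower), and most lists hold no more than 1 or 2 of them beside a cloud of uncalled genes around 0.

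Hypoxia genes guided the choice of the hours, so nothing is read from their difference. Their summed level ran from 7046 to 7341 TPM at 30 h and from 7408 to 7895 TPM at 54 h, against 13340 TPM as the mean at 36 h and 14500 TPM at 60 h. The median of the 21 genes was 0.16 for 54 h minus 30 h. ENO1 was at 3571 ± 55.8 and 3787 ± 153 TPM and LDHA at 942 ± 36.3 and 1050 ± 76.4 TPM. P4HA1, a collagen prolyl hydroxylase, was the only one called, at 90.5, 88.1 and 132 TPM and 210.1, 190.4 and 168 TPM (log2 difference 0.89, adjusted p = 0.019), and not without 30 h A1, 30 h A2, 54 h A1 or 54 h A2 (adjusted p = 0.076 to 0.16).

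Lists of dividing cells, of the clock and of control genes gave 0 calls by limma. They were 20 mitosis genes (3 higher at an unadjusted p under 0.05, median 0.30), 24 DNA replication genes (2 higher, median 0.17), 15 circadian clock genes (1 lower, median 0.13) and 8 housekeeping genes (0, median 0.12). Without overlap and higher at 54 h were 7 mitosis, 7 DNA replication and 3 housekeeping genes, against 10.2% of all genes. The sums of these 3 lists were higher in every 54 h library than in any 30 h library. For mitosis they ran from 1930 to 2315 TPM at 30 h and from 2503 to 2554 TPM at 54 h, for DNA replication from 2618 to 3078 TPM and from 3190 to 3282 TPM, and for housekeeping genes from 12740 to 14060 TPM and from 14960 to 15630 TPM. TOP2A, a topoisomerase of dividing cells, had 312 ± 36.9 and 390.2 ± 47.6 TPM, PCNA 362 ± 59.9 and 512 ± 36.2 TPM, and the clock gene CRY1 87.5 ± 3.06 and 96.0 ± 2.34 TPM.

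Markers of other cells the cultures could hold were also counted. Forebrain and midbrain genes had 0 of 7 called (1 lower at an unadjusted p under 0.05) and hindbrain genes 0 of 10 (3 higher and 1 lower), with IRX2 at 161 ± 30.0 and 163 ± 38.3 TPM. Epithelial genes had 0 of 18 called (1 higher and 1 lower) and a sum of 280 to 515 TPM at 30 h and 508 to 569 TPM at 54 h, mostly the keratin KRT8, and 7 members, such as ESRP1 and CLDN7, were listed at 0 in all 6 libraries, so that they had no value to compare. Endoderm and liver-type genes had 0 of 17 called (1 lower), with a sum of 158 to 179 TPM at 30 h and 124 to 145 TPM at 54 h. The endothelium and blood list had 0 of 10 called (0 at an unadjusted p under 0.05) and stayed at or under 16.8 TPM in sum in every library, and paraxial mesoderm had 0 of 10 (1 higher) at no more than 39.1 TPM. Lateral mesoderm and smooth muscle genes had 0 of 15 called (1 higher and 1 lower), with the actin-binding gene TPM1 at 984 ± 81.5 and 1020 ± 80.5 TPM. In the neural crest list MITF, a pigment cell regulator, fell from 5.08, 5.32 and 1.61 TPM to 0, 0 and 0.98 TPM (adjusted p = 0.04), 1 of 11, beside FOXD3 and SOX10 listed at 0 and a sum of 69.2 to 120 TPM at 30 h and 86.6 to 95.3 TPM at 54 h, and the call was lost without 30 h A1, 30 h A2, 54 h A1 or 54 h A2 (adjusted p = 0.17 to 0.24). Pluripotency genes had 0 of 11 called (1 higher and 3 lower at an unadjusted p under 0.05) and a median of −0.59. The part of these cells in the results above was not tested.

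The course between the 2 times was followed for the called genes, as a description, since the 30 h and 54 h values that chose them are its ends. Set to 0% at the 30 h mean and 100% at the 54 h mean on the log2 scale, the median higher gene had covered 19.3% of the way at 36 h, 39.9% at 42 h and 50.3% at 48 h, and stood at 92.1% at 60 h, 90.3% at 66 h and 92.4% at 72 h. The median lower gene was at 20.6%, 42.6% and 66% at 36, 42 and 48 h, and at 89.3%, 86.5% and 98.4% at 60, 66 and 72 h. Before 30 h, at 24 h, the medians were 9.18% and −1.3%. Of the 74 higher genes 18 first passed 50% at 36 h, 15 at 42 h, 10 at 48 h and 31 at 54 h, and of the 108 lower genes 29, 23, 18 and 38.

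Single genes took different courses. HOXB8 had mean levels of 35.7, 115 and 103 TPM at 36, 42 and 48 h, on its way from 10.6 to 170.5 TPM, and was at 217 TPM at 72 h. HOXB9 had lower means at those hours, 12.7, 40.5 and 39.1 TPM, and was at 468 TPM at 72 h. ALDH1A1 was still at 1005 TPM at 36 h, then at 442 and 366 TPM at 42 and 48 h. CYP1B1 and POMC were at 31.3 and 37.6 TPM at 42 h. COLEC12, a scavenger receptor gene, covered most of the way early, with 52.5 TPM at 36 h after 158 ± 20.2 TPM at 30 h and 26.1 ± 1.52 TPM at 54 h. DUSP6 went from 16.5 to 40.4 and 152 TPM over 42, 48 and 54 h, and was at 76.8 TPM at 60 h and 168 TPM at 72 h. INSIG1, at 56.6 TPM at 54 h, was at 142 TPM at 48 h and 245 TPM at 60 h. Of these hours 48 h has 2 libraries, and 42 h (B1) and 72 h (A2) each hold 1 of the libraries with under 10000 genes at 1 TPM.

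**Figure D4:**
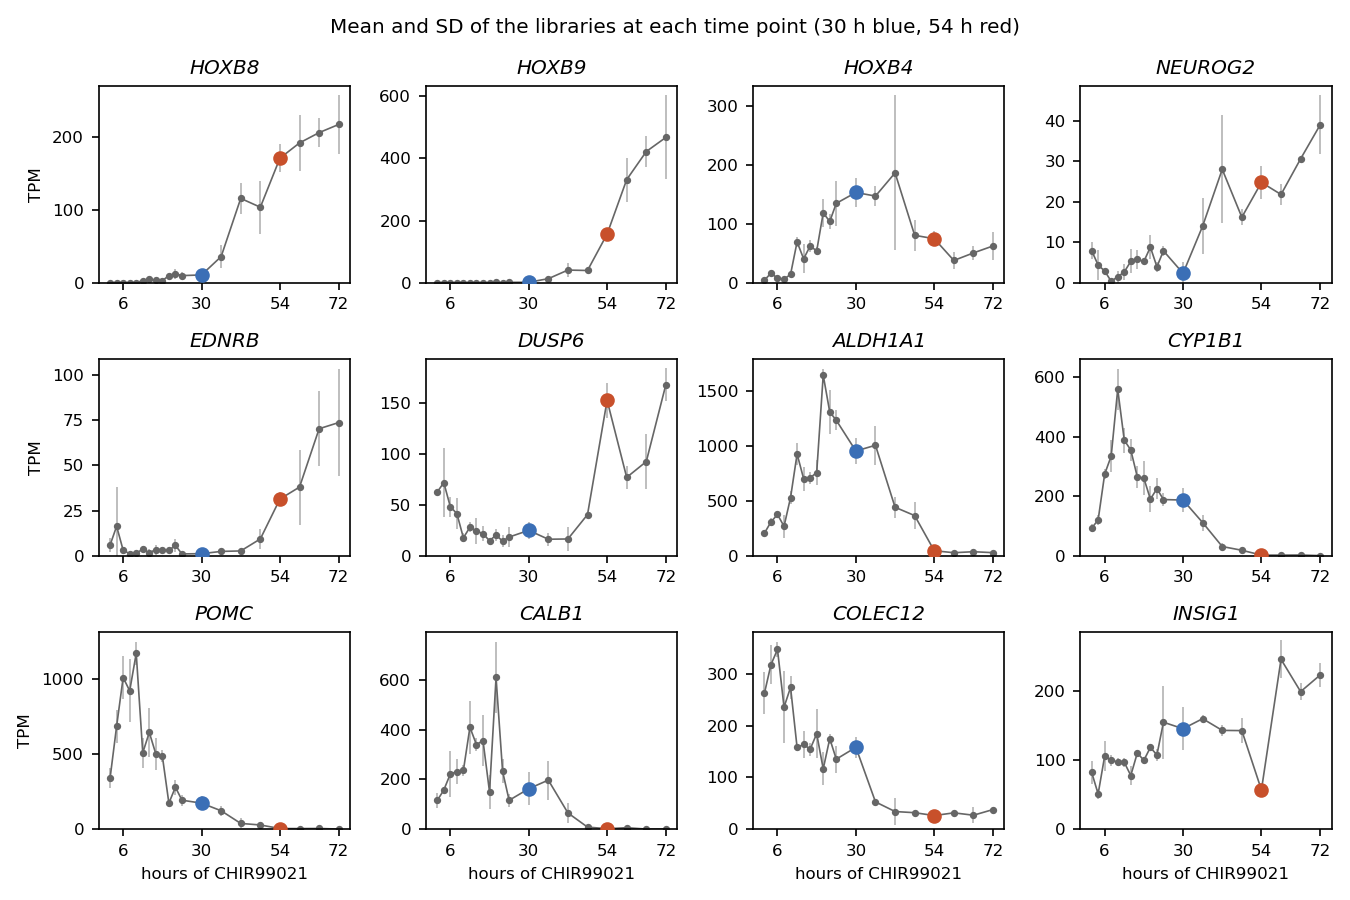
Mean TPM (points) and SD (bars) of the libraries at each of the 20 exposure times for 12 genes, against hours of CHIR99021, with 30 h in blue and 54 h in red. HOXB8, HOXB9 and EDNRB climb after 30 h, ALDH1A1, CYP1B1, POMC, CALB1 and COLEC12 decline to low plateaus, and the 54 h mean lies above both neighbouring times for DUSP6 and below both for INSIG1.

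The change from 30 h to 54 h was also tested against that of 3 further pairs of times that are 24 h apart and share no library with it, 60 minus 36 h, 66 minus 42 h and 72 minus 48 h. Their windows of exposure overlap with that of 30 h to 54 h by 18, 12 and 6 h, so they are later windows, not separate days. These 6 hours have higher hypoxia genes than 30 h and 54 h, with mean sums of 11390 to 15070 TPM. Of the 74 higher genes 62, 59 and 52 were also above 0 in the 3 pairs, against 44.7%, 50.1% and 43.6% of all genes tested, and 44 in all of them. Of the 108 lower genes 95, 83 and 67 were below 0, against 51.1%, 44.5% and 50% of all genes, and 58 in all 3. The median of the higher genes was 0.76 as the mean of the 3 pairs, beside 1.89 in 54 h minus 30 h, and that of the lower genes −0.47, beside −1.52. The values of 54 h minus 30 h come from the fit that chose the genes. The means of the other pairs lay close to the values of 54 h minus 30 h for ALDH1A1 (−4.34 here and −4.21 as the mean of the other pairs, adjusted p of the difference 0.975), EDNRB (3.95 and 3.53, 0.952), DUSP6 (2.60 and 2.32, 0.953) and MAF (−1.89 and −2.12, 0.897). A p that misses the threshold does not show that they are equal.

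By limma's test of the difference itself, 21 of 15305 genes passed, or 0.137%, with 9 more positive and 12 more negative in 54 h minus 30 h, and 15 of them were among the 182. The number was 110 without the 3 libraries with under 10000 genes at 1 TPM, and 7 without 30 h A2 or without 54 h A1. INSIG1 differed most firmly, at −1.34 here and 0.61, 0.47 and 0.65 in the other pairs (difference −1.91, SE 0.208, adjusted p = 1.33e-07). HOXB8 had a larger difference than in the overlapping later windows, at 3.93 against 2.45, 0.84 and 1.09 (difference 2.47, SE 0.429, adjusted p = 0.00243), and so did HOXB9, at 6.34 against 4.80, 3.47 and 3.51 (difference 2.42, SE 0.503, adjusted p = 0.0191). The HOXB9 difference was not past the threshold without any 1 library but 30 h A1 (adjusted p = 0.064 to 0.15), and both were not with a pseudocount of 0.1 TPM (adjusted p = 0.11 each). COLEC12, at 135, 169.7 and 169.7 TPM at 30 h and 25.8, 24.8 and 27.8 TPM at 54 h, also differed (−2.55 against −0.08 as their mean, adjusted p = 0.0172), with no call without 30 h A2, 30 h B1, 54 h A1 or 54 h A2 (adjusted p = 0.063 to 0.092). KLF6, a zinc finger gene of the immediate early kind that was not called in 54 h minus 30 h, was at 27.3, 65.0 and 36.4 TPM at 30 h and 16.5, 15.5 and 20.1 TPM at 54 h (−1.17 against 0.64, adjusted p of the difference 0.0252), with no call without the same 4 libraries (adjusted p = 0.054 to 0.27). UGCG, the glucosylceramide synthase gene, was at 132, 181 and 135 TPM at 30 h and 39.1, 51.9 and 53.0 TPM at 54 h (−1.61 against 0.19, adjusted p of the difference 0.00762, or 0.079 to 0.084 without 30 h A2 or 54 h A1). Of the genes outside the lists given above, FLRT3 (−2.12 against −0.47, adjusted p of the difference 0.000123) and CCNG2 (−1.32 against −0.12, 0.00212) differed too, whichever library was left out.

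**Figure D5:**
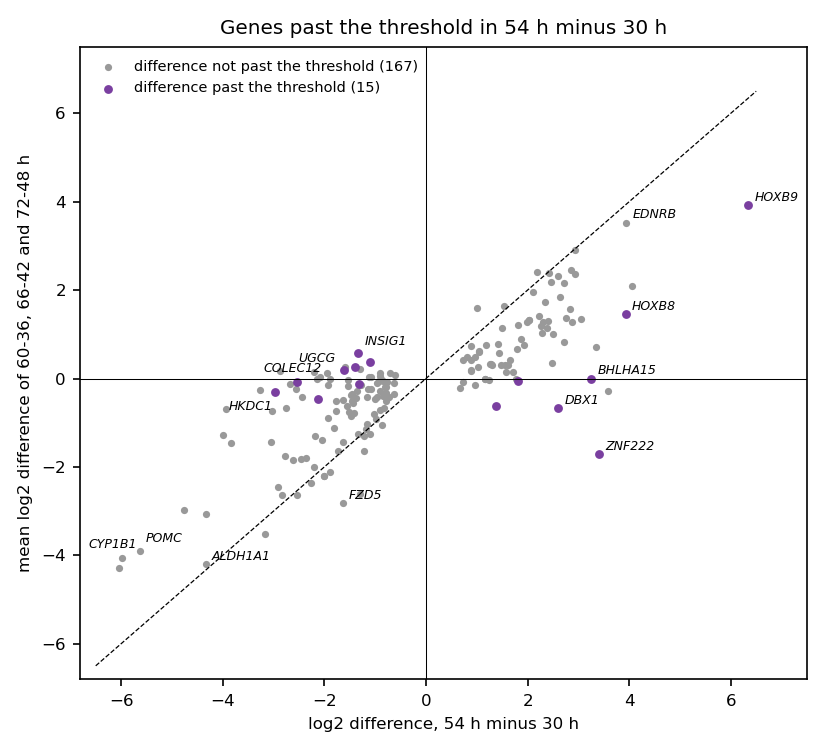
For the 182 called genes, the mean log2 difference of the 3 other pairs of times 24 h apart (vertical axis) against the log2 difference of 54 h minus 30 h (horizontal axis), with the dashed line where both are equal. The 15 genes whose difference from the other pairs passed the test are purple, and INSIG1, at −1.34 on the horizontal axis, lies above 0 on the vertical one.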

How the data were processed

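RNA was measured in 59 libraries of the H9 line, and 6 of them are compared here. The authors deposited TPM, transcript abundances scaled to a fixed total in each library, per gene in 1 table. Per the submitters' processing notes the tools were CASAVA 1.8.2, Bowtie 0.12.8 and RSEM 1.2.3 with hg19. Which gene models were used was not given in the sources used here. RSEM shares out reads of near-identical genes, so close paralogs are uncertain. Each column was matched to its sample by its time and replicate label.

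Of 19084 genes, 15305 with at least 1 TPM in 3 libraries were tested. log2(TPM + 1) was fitted with limma 3.58.1 (R 4.3.3) with 1 mean for each of 20 times over all libraries and an intensity trend, and p-values were Benjamini-Hochberg adjusted over all genes. Fitting all times gives 39 residual degrees of freedom and takes the spread from every time. The text names the 15 largest called differences in each direction with a mean of at least 5 TPM, every called member of 40 gene lists, the 2 highest uncalled members of each list, and HOX genes at 2 TPM or more. By the same rule it names the 5 highest and 5 lowest genes past the threshold in the difference from the other pairs, also at 5 TPM or more. Some genes that this rule gives are not reported here. Other names are said to be chosen after their values were seen. The members and lists were chosen with earlier results of these data known. Alternatives were a fit of the 6 libraries alone, a replicate block, another pseudocount and filters, other scalings, array weights and libraries left out. The script was tested on simulated data. The replicate labels were not used to pair the libraries in the main fit, and whether they mark shared cultures is not known. Python 3.11.15, pandas 2.3.3 and matplotlib 3.10.9 were used for promoters and figures. Promoter sequences are from RefSeq (GRCh38.p14), another build than the table's. They were matched by symbol, and no table coordinates were used.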

Additional observations from a re-analysis of the deposited data

Results flagged for a closer look

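The naming rule took the 5 highest and 5 lowest differences past limma's test of the difference with a mean of at least 5 TPM. The 10 genes below are those, so their number was set by the rule. From 30 h to 54 h they changed by another amount than in the 3 later windows of 24 h that overlap with that day. INSIG1 differed by −1.91 (adjusted p = 1.33e-07, and at most 8.7e-06 without any 1 of the 6 libraries). HOXB8 differed by 2.47 (0.00243) and HOXB9 by 2.42 (0.0191), with HOXB9 past the threshold in 1 of the 6 fits that left out a library. BHLHA15 differed by 3.26 (0.00247), ZNF222 by 5.10 (0.0126) and DBX1 by 3.27 (0.0465). These 3 genes were at or near 0 at 30 h. BHLHA15 was at 0 on average at every other time from 14 h to 72 h, and ZNF222 at 30 h and 72 h only. The difference of BHLHA15 is therefore its value of 54 h minus 30 h and adds nothing to it. That call of 54 h minus 30 h was lost with the 6 libraries alone (adjusted p = 0.094 by limma). ZNF222 missed the threshold without 30 h A2 or 54 h A1 (adjusted p = 0.051 to 0.067), and DBX1 without any library but 30 h A1 (adjusted p = 0.062 to 0.24). COLEC12 differed by −2.47 (0.0172), KLF6 by −1.82 (0.0252) and UGCG by −1.80 (0.00762). HKDC1 differed by −2.69 (0.0303) and did not pass without any 1 library (adjusted p = 0.064 to 0.12). With a pseudocount of 0.1 TPM the differences of HOXB8, HOXB9, HKDC1 and DBX1 did not pass (adjusted p = 0.085 to 0.18 by limma). That of DBX1 was also lost with a filter of 5 TPM (0.065) and without the intensity trend (0.051).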

How the results depend on the processing

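The main fit gave 182 calls (74 higher, 108 lower) and 21 genes that differed from the other pairs of times. With the replicate label as a block these became 176 (69 and 107) and 23. Deviations from the mean of each time correlated across genes at 0.00872, −0.00399 and −0.00499 between the same labels at 30 h and 54 h. Between unlike labels they correlated at −0.0167 to 0.0168. Values this near 0 over all genes cannot tell whether a label marks a shared culture. The counts were 97 (59 and 38, or 60.8% higher instead of 40.7%) when the 6 libraries were fitted alone, of which 53 were among the 182, and this fit gives no value for the difference from the other pairs. With a pseudocount of 0.1 TPM 127 genes were called (46 higher, 81 lower) and 17 differed from the other pairs. Array weights gave 621 calls (274 higher, 347 lower) and 103 differences, and leaving out the 3 libraries of other times with under 10000 genes at 1 TPM gave 467 (207 and 260) and 110. Quantile normalization gave 37 differences. Leaving out 1 library gave 92 to 154 calls (38 to 62 higher, 50 to 93 lower) and 7 to 22 differences, and leaving out A1, A2 or B1 at both times gave 73 to 90 calls (26 to 32 higher, 43 to 58 lower) and 9 to 16 differences. Where both times are left with 2 libraries, or 1 time is, the fit takes the spread from all times. The cause of these moves was not tested. The other counts, under no filter, a filter of 5 TPM, median-ratio scaling and no trend, stayed within 1.5 times. No named gene changed direction in an alternative run where it was called in that run or in the main fit. Changes of direction in genes called in neither were not counted. Of the named results 37 lost their call when the 6 libraries were fitted alone, 24 with the smaller pseudocount, and 2 with the block, among them FZD7 (adjusted p = 0.05 after rounding). Depth is unknown, so what it limits could not be computed.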
